A study of Mus musculus with 18 samples.

Results

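Lymphoid-biased and myeloid-biased multipotent progenitors were compared in mice without Helios. Libraries of the MPP4 population from 3 Helios null (KO) mice were set against libraries of the MPP3 population from the same 3 mice, so that 6 of the 18 libraries of the series carried the comparison. Both populations were sorted from bone marrow at 10 weeks of age. They lacked lineage markers and CD150 and carried Sca1, Kit and CD48. MPP3 were Flt3-negative and MPP4 were Flt3-positive. The matching MPP3 and MPP4 libraries of 3 wild type (WT) mice served for comparison, and long-term hematopoietic stem cells (LT-HSC, CD48-negative and CD150-positive) of the KO mice are given as a further level. The labels name neither the strain of the mice nor the exons missing from the KO allele.

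Helios is encoded by Ikzf2 and belongs to the Ikaros family of zinc finger proteins, which bind DNA and recruit chromatin remodelling complexes in blood cells. MPP4 correspond to lymphoid-primed progenitors that have largely lost the option to make megakaryocytes and erythrocytes. MPP3 feed granulocytes and monocytes, and the same gate also holds cells with megakaryocyte, erythroid and mast cell potential. The receptor tyrosine kinase Flt3 separates the gates, and its ligand drives the expansion of lymphoid and dendritic progenitors.

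The MPP3 KO libraries held 26107781 to 29613609 reads and the MPP4 KO libraries 21858683 to 28091202 reads. Levels (CPM) are reads of a gene scaled to the same TMM-adjusted total in every library, given for mice 1, 2 and 3 in that order. A log2 fold change is MPP4 over MPP3, with its standard error, and a gene was called at an edgeR adjusted p under 0.05 over all 16325 genes tested. In a principal component analysis of the MPP3 and MPP4 libraries the first component (29.5% of the variance) separated MPP3 from MPP4, and the second (11.9%) set the libraries numbered 1 of both genotypes apart from those numbered 2 and 3. The MPP3 KO library of mouse 1 also held most of the immunoglobulin transcripts found in MPP3 KO, and list counts are also given with KO mice left out. In bulk libraries fewer cells of a type and less RNA per cell cannot be told apart.

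In the KO mice 644 genes (3.94% of those tested) were higher in MPP4 and 580 (3.55%) were lower. Genes higher in MPP4 included lymphoid genes such as Dntt, Ccr9, Il7r and Rag1, and genes lower in MPP4 included megakaryocyte, erythroid and mast cell genes such as Gp5, Mfsd2b, Car1 and Cpa3. Of the 1224 called genes, 1217 differed in the same direction in all 3 mice, and in 1120 the MPP4 and MPP3 libraries did not overlap. The calls were made on these same libraries, so both counts describe the called genes and are no separate support. Shares over all genes tested are not given for them. The median log2 fold change was -0.99 among the lower genes and 0.77 among the higher genes. At a log2 fold change of at least 1 in size, 240 genes were higher and 290 lower. The median over all genes tested was -0.01. Without KO mouse 1 the counts were 283 higher and 272 lower, without mouse 2 they were 328 and 367, and without mouse 3 they were 285 and 292.

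**Figure D1:**
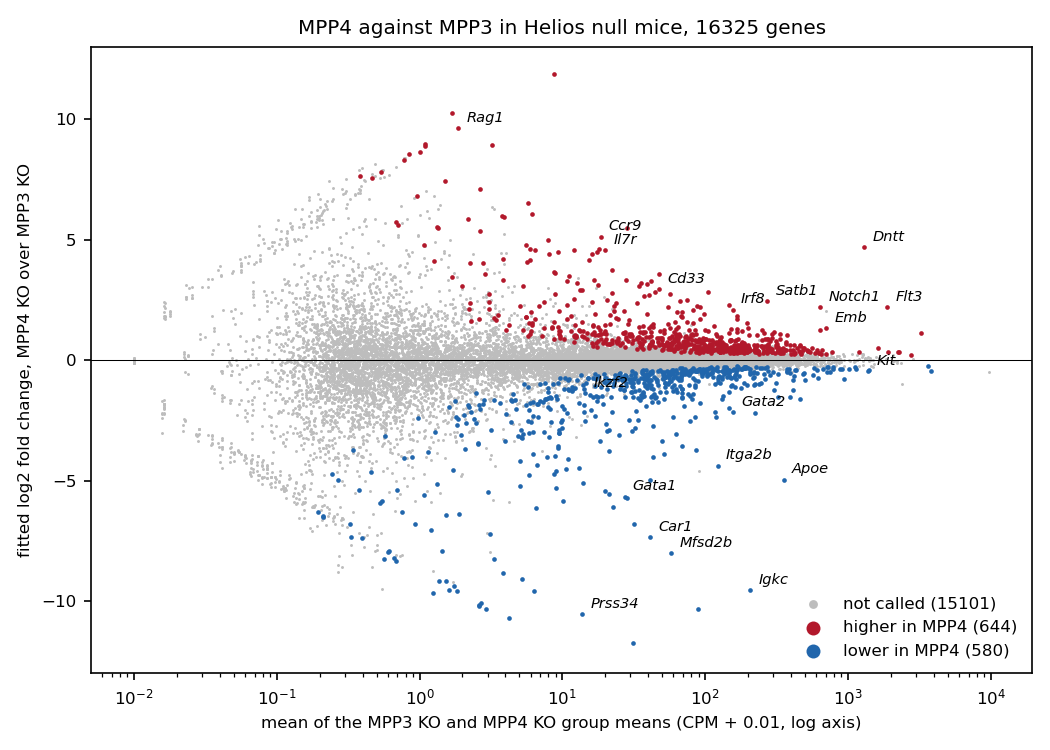
Each point is 1 of the 16325 genes tested, with the mean of the 2 KO group means on the horizontal axis (CPM plus 0.01, log axis) and the fitted log2 fold change of MPP4 over MPP3 on the vertical axis. The 644 genes called higher in MPP4 are red and the 580 called lower are blue, and the fitted values of genes with 0 reads in a group, which form the outer arms at low levels, depend on the prior count.

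Ikzf2 was checked first. Reads remained in every KO library, at 19.0, 19.0 and 24.0 CPM in MPP3 and at 3.55, 11.1 and 10.2 CPM in MPP4. All MPP4 libraries lay below all MPP3 libraries, with a log2 fold change of -1.36 ± 0.33 (edgeR adjusted p = 0.0228), and the call was lost without mouse 1 or without mouse 3. In WT mice the same contrast of Ikzf2 was -0.55 and did not pass (edgeR adjusted p = 0.424), and the difference between the genotypes was -0.81 ± 0.45 (edgeR unadjusted p = 0.0938). A predicted gene, Gm29112, overlaps Ikzf2 and had means of 7.09 CPM in MPP3 against 2.41 CPM in MPP4; reads of the overlap cannot be assigned to either. Ikzf1, which encodes the founding family member Ikaros, stood at 190, 235 and 212 CPM in MPP3 and rose to 362, 321 and 331 CPM in MPP4, a log2 fold change of 0.67 ± 0.10 (edgeR adjusted p = 0.000824). Ikzf3, Ikzf4 and Ikzf5 were at or below 2 CPM on average in both populations, and none was called.

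The genes of the sorting gates check the sort, which used their proteins, and are no finding. Flt3 stood at 553, 750 and 729 CPM in MPP3 and at 2705, 3536.6 and 3034.7 CPM in MPP4, so the groups did not overlap and the log2 fold change was 2.20 ± 0.16 (edgeR adjusted p = 8.89e-06). The Flt3-negative gate still held Flt3 transcripts in all 3 MPP3 libraries, against a mean of 70.2 CPM in LT-HSC KO. Slamf1, which encodes CD150, was low in MPP3 at 8.61, 2.09 and 3.48 CPM and lower in MPP4 at 0.71, 0.557 and 0 CPM (log2 fold change -3.44 ± 0.59, edgeR adjusted p = 0.00304). Both gates select CD150-negative cells, and LT-HSC KO had a mean of 58.9 CPM. Cd48, positive in both gates, stood at 347, 242 and 327 CPM in MPP3 against 415, 230 and 255 CPM in MPP4 and was not called (log2 fold change -0.06 ± 0.26, edgeR adjusted p = 0.957). Kit, the stem cell factor receptor, had 1394.4, 1864.9 and 1505.7 CPM in MPP3 and 934, 1473.7 and 1141.6 CPM in MPP4. Each mouse had less Kit in MPP4 although the groups overlapped, and the log2 fold change of -0.44 ± 0.07 (edgeR adjusted p = 0.00282) was not called when the model had no term for the mouse. Ly6a, which encodes Sca1, was modestly higher in MPP4 at 109, 110 and 128 CPM against 84.5, 81.0 and 81.5 CPM (log2 fold change 0.48 ± 0.11, edgeR adjusted p = 0.0174), and this call was lost whichever of the 3 mice was left out.

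The DNA just upstream of the start of 3 genes higher in MPP4 is printed here, since Dntt and Ccr9 were among the largest lymphoid rises and Flt3 separates the gates. Each run holds the 250 bases before the RefSeq start (GRCm38.p6, the mm10 build), 5′ to 3′ on the gene's strand: Dntt at chr19:41029025-41029274 (+), Ccr9 at chr9:123766961-123767210 (+) and Flt3 at chr5:147400490-147400739 (-). Capitals mark every match, on either strand, to 5 short motifs. AGATAA is a motif of the Gata family, CAGCTG is an E protein motif, and CAGGTG is another of that family. TGGGAA is the core bound by Ikaros proteins, and AGGAAG is a motif of the Ets family.
Dntt: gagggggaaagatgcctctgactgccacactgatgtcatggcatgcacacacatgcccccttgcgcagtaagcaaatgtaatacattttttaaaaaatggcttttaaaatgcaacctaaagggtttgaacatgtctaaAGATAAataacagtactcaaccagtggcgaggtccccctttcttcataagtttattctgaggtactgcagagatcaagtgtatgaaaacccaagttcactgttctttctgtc
Ccr9: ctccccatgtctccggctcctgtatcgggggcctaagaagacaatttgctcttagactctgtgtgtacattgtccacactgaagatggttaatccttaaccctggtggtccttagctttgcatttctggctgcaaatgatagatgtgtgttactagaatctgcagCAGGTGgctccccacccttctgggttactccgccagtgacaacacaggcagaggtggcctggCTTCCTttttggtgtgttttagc
Flt3: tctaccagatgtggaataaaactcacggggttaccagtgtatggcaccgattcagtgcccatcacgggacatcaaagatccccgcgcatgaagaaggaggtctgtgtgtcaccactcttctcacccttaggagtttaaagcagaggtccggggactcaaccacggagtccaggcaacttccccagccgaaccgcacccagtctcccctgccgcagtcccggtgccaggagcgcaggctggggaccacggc
The Dntt run held 1 AGATAA match, the Ccr9 run 1 CAGGTG match and 1 AGGAAG match on the opposite strand, and the Flt3 run none of the 5. A match is a run of letters, not a measured binding site.

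Of 28 tested lymphoid receptors and effectors 13 rose and 0 fell, against 3.94% and 3.55% of all genes tested. The counts of every later list are to be read beside these shares. Their median log2 fold change was 0.92, where that of all genes was -0.01. Without KO mouse 1 the list had 9 rises, and without mouse 2 or mouse 3 it had 13 and 12. The members that rose were Rag1, Rag2, Dntt, Il7r, Ccr9, Ccr7, Blnk, Btla, Lck, Cnn3, Lsp1, Cd52 and Ltb.

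Dntt, the terminal transferase that adds bases at V(D)J junctions, was already present in MPP3 at 116, 67.7 and 87.3 CPM and reached 4092.7, 1788.6 and 1678.6 CPM in MPP4. Mouse 1 was the highest in both populations, every MPP4 library lay far above every MPP3 library, and the log2 fold change was 4.70 ± 0.50 (edgeR adjusted p = 9.62e-05). Per kilobase of transcript Dntt ranked 51 of all genes tested in MPP4 and 4476 in MPP3. Rag1 had 0 reads in all 3 MPP3 libraries and 6.62, 2.46 and 2.07 CPM in MPP4, at least 105-fold higher against a floor of 3 reads over the group (edgeR adjusted p = 0.00205). Rag2 stood at 0.173, 1.67 and 1.38 CPM in MPP3 and 29.3, 16.2 and 23.3 CPM in MPP4 (log2 fold change 4.59 ± 0.77, edgeR adjusted p = 0.00287). B230118H07Rik overlaps both genes and had means of 39.8 CPM in MPP3 and 40.2 CPM in MPP4.

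Il7r, the interleukin 7 receptor alpha chain that marks common lymphoid progenitors, was at 1.97, 0.0381 and 3.33 CPM in MPP3 and at 81.3, 15.8 and 16.9 CPM in MPP4. Mouse 1 stood well above the other mice in MPP4. The log2 fold change of Il7r was 4.58 ± 0.82 (edgeR adjusted p = 0.00437), and the call was lost without mouse 1. Ccr9, a chemokine receptor of progenitors that seed the thymus, had 0.45, 2.06 and 0.861 CPM in MPP3 and 23.2, 51.4 and 33.0 CPM in MPP4, with no overlap between the groups (log2 fold change 5.13 ± 0.41, edgeR adjusted p = 1.42e-05). Lztfl1 overlaps Ccr9 and had means of 11.1 and 22.5 CPM. Among other receptors and adaptors, Ccr7 rose from a mean of 1.54 to 30.7 CPM, Blnk from 1.34 to 29.4 CPM, Btla from 5.99 to 38.9 CPM and Lck from 30.7 to 134 CPM. Cd79a, a signalling chain of the B cell receptor, was not called, with means of 0.551 CPM in MPP3 against 0.244 CPM in MPP4. Igll1 and Cd2 were too low to be tested.

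Of the 12 largest rises among called genes that reached a mean of 10 CPM in a group, 8 lay outside the lists. Rag1, with a fitted log2 fold change of 9.64, was below that level. Gfra1, a receptor for glial cell line-derived neurotrophic factor, had 0 reads in MPP3 and 32.2, 7.52 and 13 CPM in MPP4, at least 502-fold higher (edgeR adjusted p = 0.0213), and the call was lost whichever mouse was left out. Cox6a2, a muscle-type subunit of cytochrome c oxidase, rose from 0.138, 0 and 0.187 CPM to 23.1, 4.88 and 6.08 CPM (log2 fold change 6.53 ± 0.78, edgeR adjusted p = 0.000246). Cmah, which hydroxylates sialic acid, rose from 0.415, 3.12 and 0.711 CPM to 79.6, 39.0 and 47.2 CPM (log2 fold change 5.49 ± 0.81, edgeR adjusted p = 0.0011). In all 3 genes mouse 1 was the highest in MPP4. The same held for Klhl30, with 28.5, 7.99 and 9.41 CPM in MPP4 against 0.83, 0 and 1.01 CPM in MPP3, whose call was lost without mouse 1. Ddx4, an RNA helicase known from germ cells, rose from 2.98, 0.495 and 1.31 CPM to 26.8, 35.6 and 41.0 CPM (log2 fold change 4.63 ± 0.51, edgeR adjusted p = 0.000135). Bank1, a scaffold protein of B cell receptor signalling, rose from 0.173, 0.609 and 0.823 CPM to 11.9, 10.6 and 11.4 CPM (log2 fold change 4.61 ± 0.58, edgeR adjusted p = 0.00036). St8sia1, a ganglioside sialyltransferase, and Lpar1, a lysophosphatidic acid receptor, had log2 fold changes of 6.06 ± 1.57 and 4.78 ± 1.22 (edgeR adjusted p = 0.0349 and 0.0314). Both calls were lost whichever mouse was left out.

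**Figure D2:**
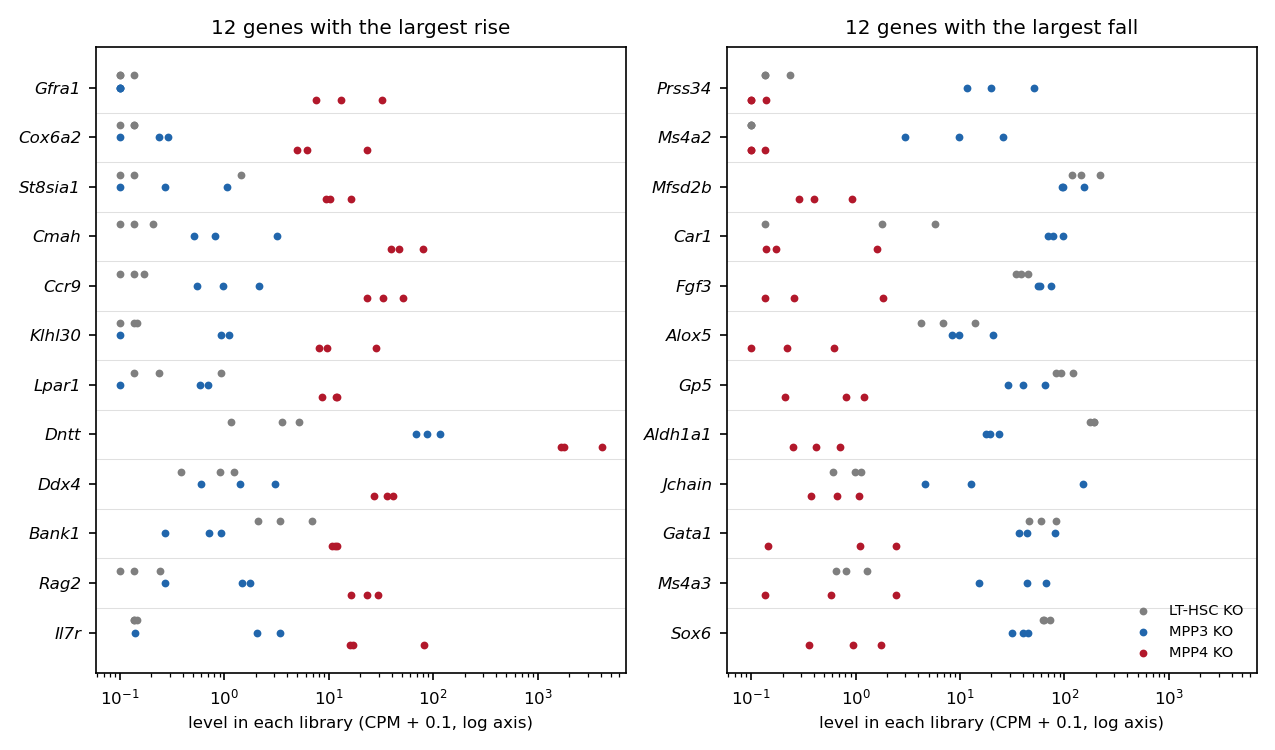
Levels of the 12 called genes with the largest rise (left) and the 12 with the largest fall (right), among those that reached a mean of 10 CPM, in each library of the KO mice, as CPM plus 0.1 on a log axis, with 1 point per mouse. The LT-HSC points of Mfsd2b, Fgf3, Gp5, Aldh1a1, Gata1 and Sox6 lie near or above the MPP3 points, while those of Prss34, Ms4a2, Car1 and Ms4a3 lie near the MPP4 points.

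Among 19 tested lymphoid transcription factors 6 rose and 1 fell, with a median log2 fold change of 0.21. Without KO mouse 1 or mouse 2 there were 5 rises. Satb1, a chromatin organiser of lymphoid progenitors, was even across mice at 80.9, 88.3 and 84.9 CPM in MPP3 and rose to 561, 426 and 394 CPM in MPP4 (log2 fold change 2.44 ± 0.27, edgeR adjusted p = 0.000135). Mef2c, a MADS box factor needed for lymphoid fate, stood at 228, 257 and 239 CPM in MPP3 and 523, 509 and 475 CPM in MPP4 (log2 fold change 1.05 ± 0.10, edgeR adjusted p = 6.15e-05). Tcf4, the E protein E2-2, rose by a log2 fold change of 1.03 ± 0.10 (edgeR adjusted p = 6.30e-05), from 130, 142 and 124 CPM to 312, 265 and 237 CPM. Bcl11a and Bach2 also rose, by 0.66 and 0.69. Gata3, a factor of T cells and of stem cells, was the member that fell, from 24.4, 30.4 and 21.9 CPM to 10.7, 14.7 and 10.4 CPM (log2 fold change -1.10 ± 0.16, edgeR adjusted p = 0.000975). The other E proteins Tcf3 and Tcf12 had log2 fold changes of 0.21 and -0.18 and were not called. Ebf1, the B lineage factor, had 0 reads in MPP3 and a mean of 0.909 CPM in MPP4 and was not called (edgeR adjusted p = 0.148), and Pax5 had 0 reads in all 6 libraries.

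Of 12 tested Notch pathway genes 3 rose and 0 fell, and the median was 0.23. Without KO mouse 1 there was 1 rise, and without mouse 2 or mouse 3 there were 2. Notch1, the receptor that sets T cell fate, rose from 222, 203 and 261 CPM to 1238.4, 1010.6 and 905 CPM, with no overlap between the groups (log2 fold change 2.19 ± 0.22, edgeR adjusted p = 6.33e-05). Per kilobase it ranked 13 of all genes tested in MPP4, but the deposited median transcript length used for Notch1 was only 406 bases. That median can differ from the length of the transcript expressed, so the rank is not a reliable level. The modifier genes Dtx4 and Lfng rose by 1.49 ± 0.29 and 0.89 ± 0.20 (edgeR adjusted p = 0.00717 and 0.0167), and the call of Dtx4 was lost without mouse 1. That of Lfng was lost whichever mouse was left out and with no term for the mouse. Target genes of the pathway were low. Hes1 had means of 1.53 CPM in MPP3 against 1.68 CPM in MPP4 and Nrarp of 1.53 and 1.01 CPM, and neither was called. Dtx1, Ptcra and Il2ra were too low to be tested.

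Of 22 tested dendritic cell and antigen presentation genes 7 rose and 1 fell, with a median of 1.30. Irf8, a factor of dendritic cells and monocytes, rose from 88.8, 28.9 and 57.2 CPM to 431, 150 and 180 CPM (log2 fold change 2.10 ± 0.37, edgeR adjusted p = 0.00366). Mouse 1 was the highest in both populations. Itgax, which encodes CD11c, was low but higher in every MPP4 library, at 9.98, 1.86 and 9.18 CPM against 0.45, 0.913 and 0.449 CPM (log2 fold change 3.34 ± 0.76, edgeR adjusted p = 0.024), and the call was lost without mouse 1 or mouse 3. Among class II genes Cd74 rose from a mean of 37.9 to 86.5 CPM, H2-Eb1 from 6.90 to 16.2 CPM and H2-Aa from 17.2 to 31.6 CPM. H2-Ab1 had a log2 fold change of 0.44 and Ciita, the class II transactivator, of 1.45, and neither was called. Bst2, an interferon-induced membrane protein of plasmacytoid dendritic cells and other cells, had means of 64.2 and 76.9 CPM and was not called. Clec9a fell from 0.45, 0.457 and 0.299 CPM to 0 reads in MPP4, at least 9.87-fold lower (edgeR adjusted p = 0.0269), a call lost whichever mouse was left out. Flt3, a gate gene, and Irf8 were also members of other lists. Whichever KO mouse was left out, this list had 4 rises and 0 falls.

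Of 15 tested myeloid transcription factors 3 rose and 0 fell, against 3.94% and 3.55% of all genes tested, and the median was -0.16. Whichever KO mouse was left out, 2 rose. The risers were Irf8, Nfil3 and Zeb2. Nfil3, a factor of innate lymphoid and dendritic cells, rose from 13.2, 5.56 and 8.42 CPM to 56.1, 25 and 30.6 CPM (log2 fold change 2.05 ± 0.23, edgeR adjusted p = 0.000176). Zeb2 had a log2 fold change of 0.36 ± 0.10 with overlapping groups (edgeR adjusted p = 0.0366), and its call was lost in 14 of 19 alternatives. Spi1, the pan-myeloid and B cell factor PU.1, had means of 126 CPM in MPP3 and 146 CPM in MPP4. Cebpa, the driver of granulocyte and monocyte fate, had means of 31.1 and 27.0 CPM, and Gfi1 of 47.9 and 56.6 CPM. None of these 3 was called, with log2 fold changes of 0.21 ± 0.12, -0.19 ± 0.22 and 0.24 ± 0.20.

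Granule and granulocyte or monocyte priming genes went both ways. Of 28 tested 9 fell and 4 rose, with a median log2 fold change of -0.84, and without KO mouse 1, 2 or 3 there were 5, 8 and 4 falls, each with 4 rises. Ms4a3, a marker of granulocyte and monocyte progenitors, fell from 66.2, 15.0 and 43.6 CPM to 0.0374, 2.32 and 0.477 CPM (log2 fold change -5.57 ± 1.18, edgeR adjusted p = 0.0119), a call lost without mouse 1 or mouse 3. Fcgr3, a low affinity IgG receptor, fell from 11.2, 3.77 and 11.6 CPM to 0.636, 0.836 and 1.47 CPM (log2 fold change -3.13 ± 0.65, edgeR adjusted p = 0.0108), a call also lost without mouse 1 or mouse 3. Prtn3, proteinase 3 of primary granules, fell by 0.94 ± 0.11 from a mean of 415 to 213 CPM (edgeR adjusted p = 0.000206). Mpo, myeloperoxidase, had means of 3222.1 and 1555.6 CPM, and its log2 fold change of -0.99 ± 0.64 was not called (edgeR adjusted p = 0.451). Elane, neutrophil elastase, had means of 173 and 9.64 CPM and was not called either (edgeR adjusted p = 0.0612). Cd33, a sialic acid-binding receptor, rose in every mouse from 11.3, 10.3 and 11.2 CPM to 82.6, 81.0 and 90.2 CPM (log2 fold change 2.95 ± 0.54, edgeR adjusted p = 0.00466). Ncf1, the p47phox subunit of the NADPH oxidase, rose from 53.4, 41.1 and 56.2 CPM to 249, 239 and 244 CPM (log2 fold change 2.28 ± 0.23, edgeR adjusted p = 7.16e-05). Emb, a cell adhesion protein, rose from a mean of 398 to 1009.3 CPM and Clec12a from 26.0 to 111 CPM.

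Of 24 cytokine receptors 5 rose and 2 fell, against 3.94% and 3.55% of all genes tested, and the median was 0.04. Without KO mouse 1 or mouse 2 there were 4 rises. Il1r1, the interleukin 1 receptor, rose from 92.9, 69.4 and 72.2 CPM to 241, 299 and 235 CPM (log2 fold change 1.71 ± 0.17, edgeR adjusted p = 7.56e-05). Il6st, the shared signal transducer gp130, rose from 78.6, 55.9 and 52.2 CPM to 215, 111 and 113 CPM (log2 fold change 1.20 ± 0.20, edgeR adjusted p = 0.00267). Epor, the erythropoietin receptor, fell from 8.79, 4.68 and 7.82 CPM to 0.636, 0.139 and 1.51 CPM (log2 fold change -3.35 ± 0.47, edgeR adjusted p = 0.000824). Receptors of the myeloid growth factors were not called. Csf3r had means of 271 CPM in MPP3 against 264 CPM in MPP4 and a log2 fold change of -0.02 ± 0.15. Csf1r had means of 42.8 and 117 CPM and a log2 fold change of 1.47 ± 0.63 and was not called (edgeR adjusted p = 0.214).

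The upstream runs of 3 genes lower in MPP4 are printed as examples of the megakaryocyte, erythroid and mast cell lists: Itga2b at chr11:102469884-102470133 (-), Mfsd2b at chr12:4874360-4874609 (-) and Cpa3 at chr3:20242182-20242431 (-), with the same build, length and capitals as the runs above.
Itga2b: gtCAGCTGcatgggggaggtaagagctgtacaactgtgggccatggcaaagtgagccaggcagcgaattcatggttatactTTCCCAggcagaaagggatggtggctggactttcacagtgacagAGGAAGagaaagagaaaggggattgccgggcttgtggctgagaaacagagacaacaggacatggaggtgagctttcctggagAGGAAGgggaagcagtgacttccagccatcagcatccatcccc
Mfsd2b: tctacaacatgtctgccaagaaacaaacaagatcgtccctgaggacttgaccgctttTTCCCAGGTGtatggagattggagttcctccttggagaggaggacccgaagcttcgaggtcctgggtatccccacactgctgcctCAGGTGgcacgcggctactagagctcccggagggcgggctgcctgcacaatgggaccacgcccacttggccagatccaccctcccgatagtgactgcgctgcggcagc
Cpa3: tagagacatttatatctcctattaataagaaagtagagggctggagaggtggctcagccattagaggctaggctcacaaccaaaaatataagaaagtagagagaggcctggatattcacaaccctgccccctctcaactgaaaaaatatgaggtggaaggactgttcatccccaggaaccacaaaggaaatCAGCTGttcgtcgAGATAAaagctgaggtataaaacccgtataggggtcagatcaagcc
The Itga2b run held the E protein motif CAGCTG, the Ikaros core TGGGAA on the opposite strand and the Ets motif AGGAAG at 2 places. The Mfsd2b run held TGGGAA on the opposite strand, which overlaps a CAGGTG match, and a further CAGGTG. The Cpa3 run held CAGCTG and AGATAA close together. A RefSeq run was available for 11246 of the genes tested, for 501 of the genes higher and for 448 of the genes lower in MPP4. AGATAA was present in 6.22% of all these runs, in 6.79% of those higher and in 8.48% of those lower. TGGGAA was present in 20.4%, 17.2% and 24.1%, CAGCTG in 11.6%, 14.6% and 12.9%, CAGGTG in 15.6%, 16.4% and 15.6%, and AGGAAG in 28.6%, 33.7% and 33.0%. These shares describe the letters and were not tested.

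Megakaryocyte and platelet genes were lower in MPP4. Of 40 tested 25 fell and 0 rose, with a median log2 fold change of -1.57, or -1.54 with genes at 0 reads set to their bound. There were 21 falls and 1 rise without KO mouse 1. Gp5, platelet glycoprotein V, fell from 65.1, 40.0 and 28.8 CPM to 0.112, 1.11 and 0.715 CPM (log2 fold change -6.09 ± 0.60, edgeR adjusted p = 6.30e-05). Treml1, a receptor of platelet granules, stood at 7.85, 3.54 and 4.27 CPM in MPP3 and had 0 reads in MPP4, at least 130-fold lower (edgeR adjusted p = 0.00137). Cavin2, a caveola protein, fell from 11, 2.97 and 3.78 CPM to 0.224, 0.0464 and 0.0794 CPM (log2 fold change -5.49 ± 0.86, edgeR adjusted p = 0.00173). Integrin alpha IIb (Itga2b) fell from a mean of 234 to 10.6 CPM, P-selectin (Selp) from 236 to 58.1 CPM, and von Willebrand factor (Vwf) from 35.3 to 5.41 CPM.

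In LT-HSC KO many of these genes were higher still, with means of 447 CPM for Itga2b and 1149.0 CPM for Vwf. Over the whole list the summed level was 11294.7 to 13235.1 CPM in LT-HSC KO, 5994.1 to 7153.3 CPM in MPP3 KO and 3021.6 to 3888.7 CPM in MPP4 KO. These 3 ranges did not overlap. Among platelet transcripts Gp9 had means of 22.6 CPM in MPP3 and 8.55 CPM in MPP4, Gp1ba of 14.8 and 0.866 CPM and Pf4 of 12.7 and 0.616 CPM, and all 3 fell. Others were near 0 in both progenitors, such as Ppbp with means of 0.746 and 0.042 CPM, Tubb1 of 0.404 and 0.053 CPM and Gp1bb of 0.0358 and 0 CPM.

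Transcription factors of platelet and red cell fate were among the genes that fell. Gata1, the erythroid and megakaryocyte master regulator, went from 80.4, 36.2 and 43.6 CPM to 2.32, 0.0464 and 0.993 CPM (log2 fold change -5.66 ± 0.41, edgeR adjusted p = 8.89e-06). Its cofactor gene Zfpm1 fell from a mean of 194 to 70.9 CPM, Gfi1b from 121 to 39.9 CPM, Gata2 from 254 to 57.7 CPM and Tal1 from 53.5 to 18.5 CPM. Means in LT-HSC KO were 62.9 CPM for Gata1, 432 CPM for Zfpm1 and 241 CPM for Gfi1b. Those of Gata2 and Tal1 were 478 and 60 CPM. Each was above the mean in MPP3, which was 53.4 CPM for Gata1. Fli1, an ETS factor shared by stem cells and megakaryocytes, had means of 251 and 217 CPM and was not called (log2 fold change -0.21 ± 0.11).

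Of 24 erythroid genes 11 fell and 0 rose, with a median of -2.52, and without KO mouse 1 there were again 11 falls. Mfsd2b, the sphingosine 1-phosphate exporter of red cells and platelets, fell from 154, 93.7 and 96.4 CPM to 0.299, 0.186 and 0.834 CPM (log2 fold change -8.0 ± 0.50, edgeR adjusted p = 7.26e-06). Car1, carbonic anhydrase 1, fell from 96.8, 77.8 and 69.3 CPM to 0.0748, 1.49 and 0.0397 CPM (log2 fold change -7.35 ± 1.1, edgeR adjusted p = 0.00161). The LT-HSC KO means of this pair differed, at 160 CPM for Mfsd2b and 2.47 CPM for Car1. Aqp1, a water channel of red cells, fell from 30.0, 24.1 and 27.2 CPM to 0.112, 1.58 and 0.914 CPM (log2 fold change -5.08 ± 0.69, edgeR adjusted p = 0.000645). Sphk1, which makes sphingosine 1-phosphate, had 229 reads over the MPP3 libraries and 1 over the MPP4 libraries, a ratio of 205 (95% counting interval 36.5 to 8147.7), and its call (edgeR adjusted p = 0.0351) was lost in 9 of 19 alternatives. Klf1, the erythroid Krüppel-like factor, fell from a mean of 16.7 to 1.10 CPM and had a mean of 5.6 CPM in LT-HSC KO. The summed level of the erythroid list was highest in LT-HSC KO, at 2942.8 to 3166.0 CPM. It was 1809.0 to 2173.2 CPM in MPP3 KO and 621 to 1229.0 CPM in MPP4 KO. Globin transcripts were scarce, with Hba-a1 at 0.448 and 0.144 CPM and Hbb-bt at 5.47 and 3.39 CPM, and reads of the near-identical globin copies may be split between them.

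Mast cell, basophil and eosinophil genes had the lowest median of the 20 lists, -5.84, or -5.47 with genes at 0 reads set to their bound. Of 16 tested 8 fell and 1 rose, while without KO mouse 1 or mouse 2 there were 5 and 6 falls with 1 rise. Without mouse 3 there were 3 falls and 0 rises. Cpa3, the mast cell carboxypeptidase, fell from a mean of 79.0 to 2.73 CPM (log2 fold change -4.97 ± 0.39, edgeR adjusted p = 1.31e-05). Ms4a2, the beta chain of the IgE receptor, was at 25.5, 2.85 and 9.66 CPM in MPP3, with 1 read in all of MPP4, a ratio of 959 (95% counting interval 172 to 37906.0, edgeR adjusted p = 0.000801). Prss34, a basophil and mast cell protease, was at 51.5, 11.6 and 19.6 CPM in MPP3, also with 1 read in MPP4 (edgeR adjusted p = 0.00428), and its call was lost without mouse 1 or mouse 3. Mouse 1 was the highest in MPP3 for both genes. Cma1, mast cell chymase, had 304 reads in MPP3 and 0 in MPP4, at least 90.9-fold lower (edgeR adjusted p = 0.0279). Gzmb, granzyme B, had 629 reads in MPP3 against 1 in MPP4 (edgeR adjusted p = 0.00265). The calls of Ms4a2, Cma1 and Gzmb were lost under DESeq2 (adjusted p = 0.0684, 0.33 and 0.0866), and that of Cma1 also whichever mouse was left out. The summed level of the list was 215 to 370 CPM in MPP3 KO, 80.6 to 94.3 CPM in MPP4 KO and 60.2 to 124 CPM in LT-HSC KO. Ccl3, a chemokine made by many blood cells, was the member that rose, from a mean of 6.71 to 20.9 CPM.

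Other large falls outside these lists were those of Fgf3, Alox5, Aldh1a1 and Sox6. Fgf3, a fibroblast growth factor, fell from 74.1, 57.7 and 55.3 CPM to 0.0374, 1.72 and 0.159 CPM (log2 fold change -6.78 ± 0.83, edgeR adjusted p = 0.000287). Alox5, the 5-lipoxygenase of leukotriene synthesis, fell from 20.6, 9.74 and 8.23 CPM to 0.523, 0 and 0.119 CPM (log2 fold change -6.15 ± 0.63, edgeR adjusted p = 8.03e-05). Aldh1a1, a retinaldehyde dehydrogenase, stood at 23.4, 17.5 and 19.2 CPM in MPP3, at 0.15, 0.604 and 0.318 CPM in MPP4 and at a mean of 187 CPM in LT-HSC KO. Its log2 fold change was -5.85 ± 0.47 (edgeR adjusted p = 1.52e-05). Sox6, a factor of erythroid maturation, fell from 31.2, 39.9 and 44.8 CPM to 0.262, 0.836 and 1.67 CPM (log2 fold change -5.43 ± 0.45, edgeR adjusted p = 1.88e-05).

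**Figure D3:**
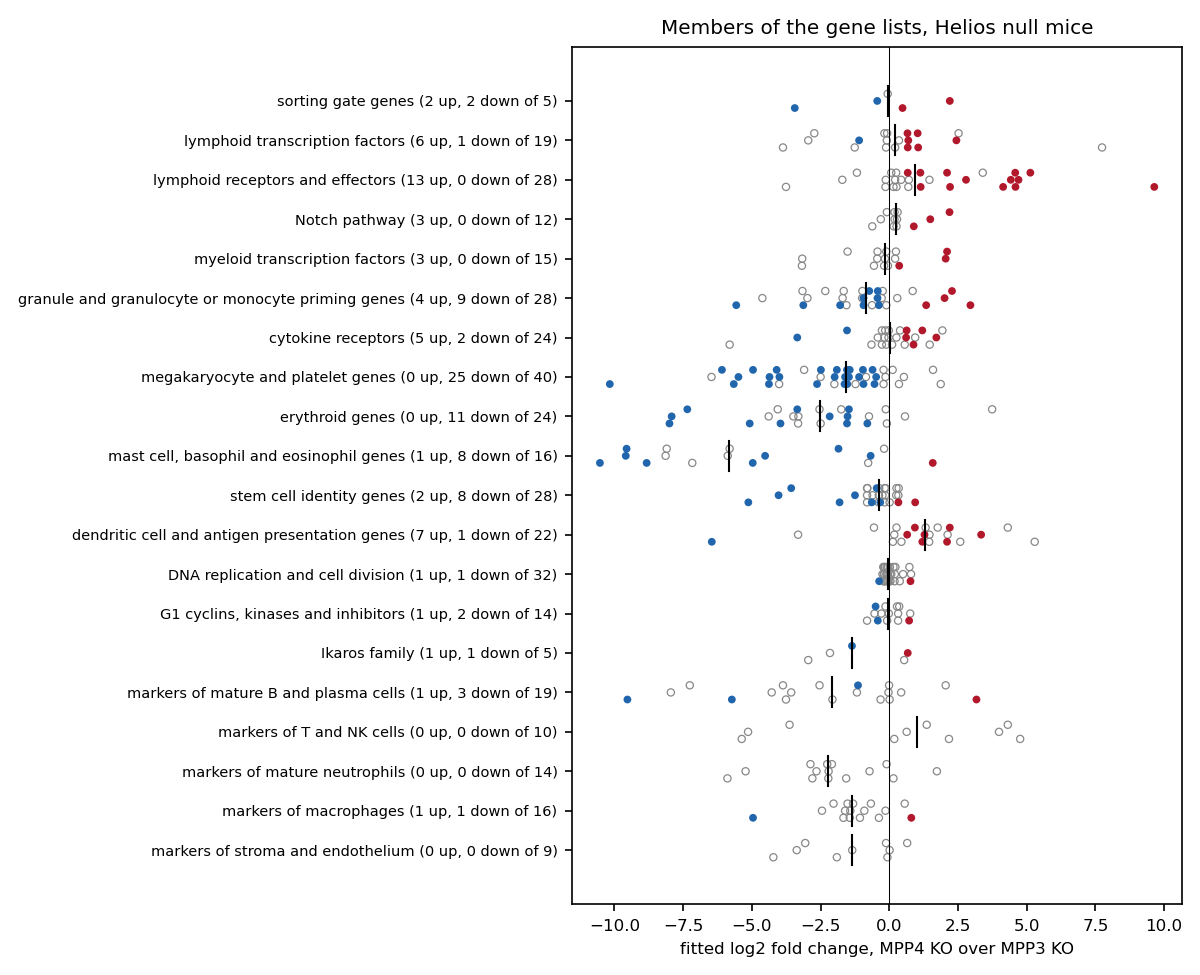
Fitted log2 fold change of MPP4 over MPP3 in KO mice for the tested members of the 20 gene lists, with called members filled (red higher, blue lower), other members open and a bar at each median. The megakaryocyte and platelet list has 25 falls and 0 rises, while the replication and division list lies close to 0; fitted values of members with 0 reads in a group depend on the prior count.

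Of 28 stem cell identity genes 8 fell and 2 rose, with a median of -0.37, and without KO mouse 1, 2 or 3 there were 4, 5 and 7 falls with 1, 2 and 1 rises. Tek, the angiopoietin receptor, fell from 65.3, 100 and 77.0 CPM to 5.38, 2.74 and 6.59 CPM (log2 fold change -4.03 ± 0.30, edgeR adjusted p = 9.90e-06). Esam, an adhesion protein of stem cells and endothelium, fell from 128, 126 and 125 CPM to 4.97, 18 and 11 CPM (log2 fold change -3.57 ± 0.35, edgeR adjusted p = 5.89e-05). Nupr1, a stress-induced nuclear protein, fell from 3.08, 2.66 and 1.87 CPM to 0, 0.0929 and 0.119 CPM (log2 fold change -5.13 ± 0.61, edgeR adjusted p = 0.000249). Sult1a1, a sulfotransferase, had a log2 fold change of -1.81 ± 0.40 (edgeR adjusted p = 0.0162) and lost its call in 9 of 19 alternatives. The transcription factors Mecom and Hlf, which maintain stem cells, stood at like levels in both gates. Mecom had means of 60.2 and 56.1 CPM and Hlf of 229 and 216 CPM, and neither was called. Meis1, another transcription factor of this list, was among the 8 members that fell. Hoxa9 rose from a mean of 42.6 to 82.1 CPM and Cd34 from 1995.1 to 2501.8 CPM.

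Of 32 replication and division genes 1 rose and 1 fell, shares near the 3.94% and 3.55% of all genes tested, and the median was -0.06. Whichever KO mouse was left out, none was called. Kif23, a kinesin of the dividing cell's midbody, had a log2 fold change of 0.77 ± 0.15 (edgeR adjusted p = 0.00667). Tyms, thymidylate synthase, had -0.37 ± 0.09 with overlapping groups (edgeR adjusted p = 0.0214). Mcm6, a helicase subunit, stood at means of 1487.9 and 1663.4 CPM and Mki67 at 25.9 and 45.2 CPM, and neither was called. The summed level was lowest in mouse 2 in both populations, at 5761.9 CPM in MPP3 and 5448.6 CPM in MPP4, against 7403.1 to 9053.1 CPM in the other 4 libraries. Of 14 G1 regulators 1 rose and 2 fell, against the same 3.94% and 3.55% of all genes tested, and counts this small are no result about the list. There were 0, 2 and 1 falls and 0 rises without KO mouse 1, 2 or 3. Ccnd3, cyclin D3, had 349, 202 and 229 CPM in MPP3 and 208, 152 and 181 CPM in MPP4 (log2 fold change -0.50 ± 0.09, edgeR adjusted p = 0.00314). Cdk6, a partner of D cyclins, had 1594.1, 1563.5 and 1651.4 CPM in MPP3 and 1156.6, 1358.2 and 1068.9 CPM in MPP4 (log2 fold change -0.42 ± 0.11, edgeR adjusted p = 0.0285). Ccnd1, cyclin D1, rose by 0.72 ± 0.18 (edgeR adjusted p = 0.0277). None of Tyms, Ccnd1, Ccnd3 and Cdk6 was called when the model had no term for the mouse or without mouse 1.

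Markers of other cell types were summed in each library. Mature B and plasma cell markers reached 3191.3 CPM in MPP3 KO of mouse 1, against 283 and 311 CPM in mice 2 and 3 and 900 to 1415.3 CPM in MPP4 KO. Of 19 tested members 3 were called lower and 1 higher in MPP4, and without KO mouse 1, 2 or 3 there were 1, 2 and 1 called lower. Igkc, the kappa light chain constant region, carried the fall at 1199.8, 14 and 31.4 CPM in MPP3 and 1.12, 0.279 and 0.0397 CPM in MPP4 (log2 fold change -9.53 ± 1.37, edgeR adjusted p = 0.000915), a call lost without mouse 1. Jchain, the joining chain of secreted IgM and IgA, fell from 151, 4.57 and 12.7 CPM to 0.561, 0.975 and 0.278 CPM (log2 fold change -5.73 ± 1.19, edgeR adjusted p = 0.0107), a call lost without mouse 1 or mouse 3. Ighm, which is also transcribed before B cell commitment, stood at 1559.1, 71.8 and 50 CPM in MPP3 against 1135.2, 792 and 638 CPM in MPP4 and was not called (edgeR adjusted p = 0.315). Sdc1, which encodes the plasma cell antigen CD138 but is expressed more widely, went the other way, from 13.4, 5.9 and 5.5 CPM to 71.6, 64.2 and 75.1 CPM (log2 fold change 3.17 ± 0.25, edgeR adjusted p = 1.47e-05). Ms4a1, which encodes the B cell antigen CD20, had 0, 0.495 and 0 CPM in MPP3 and no reads in MPP4. Of 42 immunoglobulin genes tested 8 were called higher and 7 lower in MPP4, against 3.94% and 3.55% of all genes tested. The other 1209 called genes were not immunoglobulin genes. All immunoglobulin genes together summed to 3842.8, 130 and 110 CPM in MPP3 KO and to 1220.8, 865 and 697 CPM in MPP4 KO. In WT mice MPP3 had 4560.4, 4828.1 and 191 CPM, so sums above 3842.8 CPM were also found in WT libraries. The part of plasma cell RNA in the other calls was not tested.

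Of 16 tested macrophage markers 1 fell and 1 rose, against 3.55% and 3.94% of all genes tested, and the median log2 fold change was -1.37. Macrophage markers summed to 737 to 935 CPM in MPP3 KO and 130 to 217 CPM in MPP4 KO. Apoe made up most of the sum in MPP3, at 824, 614 and 624 CPM. In MPP4 it was the smaller part of the sum, at 7.29, 27.6 and 37.0 CPM (log2 fold change -4.96 ± 0.45, edgeR adjusted p = 3.67e-05). Apoe had a mean of 975 CPM in LT-HSC KO and was also a member of the megakaryocyte list. The macrophage-defining genes Adgre1 and C1qa had means of 2.39 and 3.75 CPM in MPP3 and 0.91 and 1.55 CPM in MPP4. Cd163 had a log2 fold change of 0.80 ± 0.22 (edgeR adjusted p = 0.0418), lost in 13 of 19 alternatives. Markers of mature neutrophils summed to 41.9 to 65.1 CPM in MPP3 KO and 19.6 to 41.0 CPM in MPP4 KO, T and NK cell markers to 12.8 to 16.3 and 18.9 to 28.3 CPM, and stroma and endothelium markers to 195 to 233 and 173 to 225 CPM. None of the 14, 10 and 9 tested members of these lists was called. Cd3e, Cd3d and Cd3g were at most 0.13 CPM on average, and Cd8a, Col3a1 and Pdgfra had 0 reads in both populations.

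**Figure D4:**
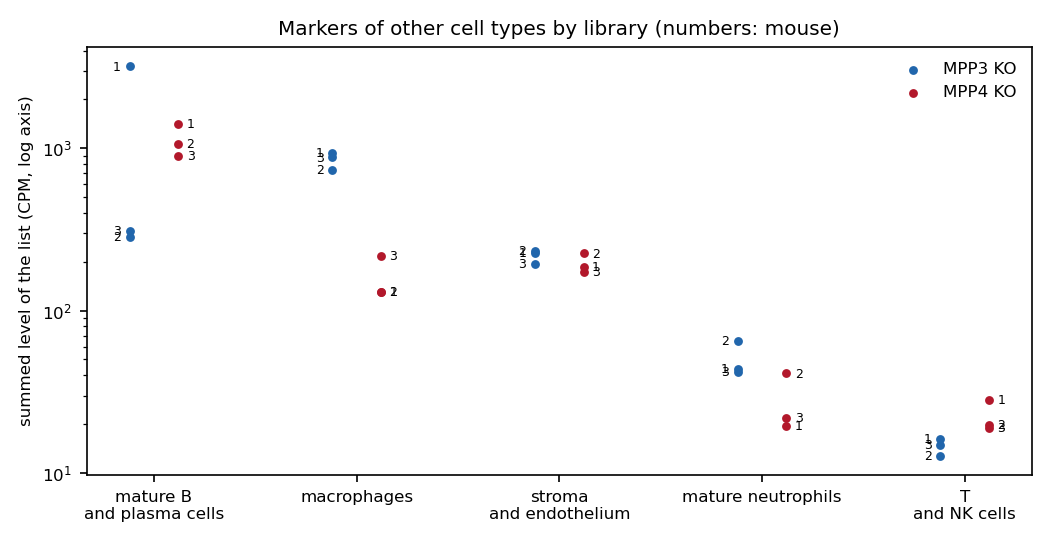
Summed level of 5 lists of other cell types in each KO library (CPM, log axis), with the mouse number beside each point. The B and plasma cell sum of MPP3 from mouse 1 (3191.3 CPM) stands apart from those of mice 2 and 3 (283 and 311 CPM).

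The split was then set beside that of WT mice, to see whether any gene separated MPP4 from MPP3 differently without Helios. In WT mice 481 genes (2.95%) were higher and 549 (3.36%) lower in MPP4. Of the genes called in KO, 740 were called in the same direction in WT, which is 60.5% of the KO calls and 71.8% of the WT calls, and 0 were called in opposite directions. Of the 1224 KO calls 1191 had the same sign in WT, a count that describes the called genes only. The like share over all genes tested was not computed. Over the 10287 genes that averaged 5 CPM or more the fold changes of the 2 genotypes had a Pearson correlation of 0.87 and a Spearman correlation of 0.56, across genes, which are not independent.

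No gene passed the test of the difference between the genotypes. In edgeR's test of the difference, KO minus WT, 0 of 16325 genes were called (0%), the smallest adjusted p was 0.989, and 741 genes (4.54%) had an unadjusted p under 0.05. limma voom also called 0, while DESeq2 called 57 above and 31 below 0. The median standard error of the difference was 0.21 on the log2 scale for genes of at least 5 CPM. The list median of lymphoid receptors and effectors was 0.92 in KO and 0.95 in WT. That of megakaryocyte and platelet genes was -1.57 in KO and -1.62 in WT, and that of granule genes was -0.84 and -0.97. Medians of other lists lay further apart. Dendritic cell and antigen presentation genes had 1.30 in KO and 0.80 in WT, erythroid genes -2.52 and -2.07, and mast cell, basophil and eosinophil genes -5.84 and -5.08. Differences between list medians were not tested.

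**Figure D5:**
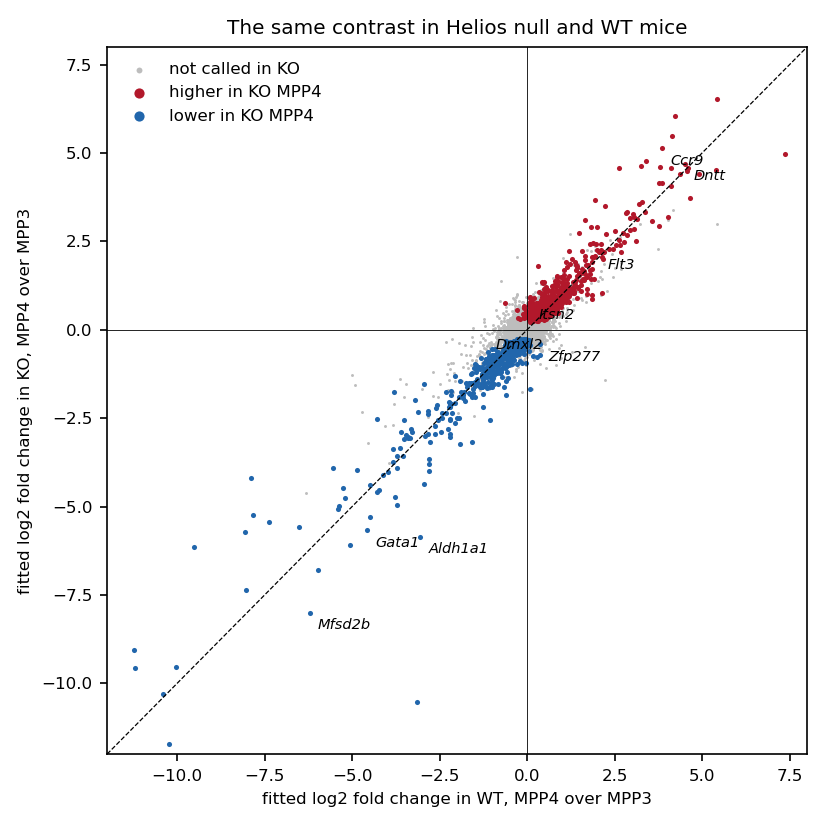
Fitted log2 fold change of MPP4 over MPP3 in WT (horizontal) and KO mice (vertical) for genes with a mean of 5 CPM or more in the KO groups, with genes called in KO coloured and a dashed line at equal values. Most coloured points follow the line, and Zfp277, Itsn2 and Dmxl2 are among the genes off it, none of which passed the test of the difference.

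Single genes are given side by side. Dntt had a difference, KO minus WT, of 0.18 ± 0.61 (edgeR unadjusted p = 0.77), and Flt3 had one of 0.14 ± 0.22 (edgeR unadjusted p = 0.523). Ccr9 had a log2 fold change of 5.13 in KO and 3.86 in WT, a difference of 1.27 ± 0.51 (edgeR unadjusted p = 0.0294). Il7r had 4.58 in KO and 2.62 in WT, a difference of 1.96 ± 1.03 (edgeR unadjusted p = 0.0796). Among falls, Aldh1a1 differed by -2.79 ± 0.72 (edgeR unadjusted p = 0.0021) and Mfsd2b by -1.79 ± 0.77 (edgeR unadjusted p = 0.0394), so both fitted falls were larger in KO. The reverse held for other genes: Epor differed by 5.12 ± 1.01 (edgeR unadjusted p = 0.000254), Alox5 by 3.36 (edgeR unadjusted p = 0.0117), Sox6 by 1.93 ± 0.75 (edgeR unadjusted p = 0.0233) and Selp by 1.21 (edgeR unadjusted p = 0.00244). Epor had means of 0.761 CPM in MPP4 KO and 0.0124 CPM in MPP4 WT, and Alox5 of 0.214 and 0.0121 CPM. The fitted differences of both genes therefore depend on the prior count. None of these 6 passed after adjustment. The 4 genes named by the smallest p of the difference were Itsn2, Dmxl2, Zfp277 and Ildr1. Itsn2, an endocytic scaffold, rose in KO from 103, 126 and 99.1 CPM to 170, 218 and 178 CPM (log2 fold change 0.79 ± 0.08, edgeR adjusted p = 0.000114) and had 0.08 in WT, a difference of 0.70 ± 0.12 (unadjusted p = 6.62e-05, adjusted p = 0.989 by edgeR). Dmxl2, a subunit that assembles the vacuolar proton pump, had -0.08 ± 0.14 in KO and -1.13 in WT, where it was called (edgeR adjusted p = 0.000426). Zfp277, a zinc finger protein, fell in KO from 57.9, 55.6 and 51.7 CPM to 40.6, 43.1 and 41.3 CPM (log2 fold change -0.40 ± 0.10, edgeR adjusted p = 0.0328) and had 44.6, 42.3 and 42.1 CPM in MPP3 WT and 62.4, 54.2 and 49.2 CPM in MPP4 WT. Ildr1, a protein of tricellular junctions, was under 3 CPM in all 12 libraries.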

How the data were processed

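Raw counts, as the file headers call them, were deposited by the authors for 29437 Ensembl genes and 18 libraries, and all tests started from them. Named in the submitters' processing notes are the build mm10, bcl2fastq 2.17.1.14 and DESeq with no version; aligner, counter, annotation and strand setting: not given in the sources used here, so reads of overlapping genes cannot be assigned (16 of 83 named genes overlap a gene of at least 1 CPM). Per the labels' protocols, cDNA of total RNA from sorted cells was amplified and tagmented, without molecular identifiers, so floors of 3 reads and intervals cover counting error only. The median transcript length, a column of other values in the authors' deposited table, gave levels per kilobase. Other columns were not used.

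After filterByExpr over the 6 groups, 16325 genes were tested with TMM scaling. All 18 libraries entered 1 quasi-likelihood fit (edgeR 4.0.16, R 4.3.3) with the mouse as a block, which leaves 8 residual degrees of freedom, with Benjamini-Hochberg adjustment over all genes at 0.05. The contrasts were MPP4 against MPP3 in KO, the same in WT, and their difference. A standard error is the size of the log2 value divided by the root of F. The study took 3 populations from each mouse and the title's number was read as the mouse. In KO, same-numbered MPP3 and MPP4 libraries deviated together (r = 0.182, 0.136 and 0.114), other pairings at most 0.0173. Deviations were taken from the mean of each group's 3 libraries, which lowers the other pairings. A shared mouse and a batch shared by number cannot be told apart here. Libraries numbered 1 of both genotypes also stood apart in the principal component analysis. The mice are separate animals, and no 2 libraries held identical counts (0 pairs). The fit was also run on simulated counts drawn from its own fitted values, which gives no separate support for the calls. Only genes above a set mean count were changed in them, so calls at low counts were not covered. DESeq2 1.42.0, limma 3.58.1 voom, other scaling, no filter, no block, fewer libraries and each mouse or library left out were run as alternatives.

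The comparison, its gene lists (20 lists, 407 of 415 entries found in the table) and its tests were chosen with earlier results of these data known. Named were Ikzf2, the gate genes, the 12 largest rises and falls among called genes that reach a mean of 10 CPM and have one direction in all 3 mice (without predicted, Rik, immunoglobulin and T cell receptor genes), up to 4 called members of each list or else the 2 with the smallest p, and the 2 genes per direction with the smallest p of the difference. Other list members are named as examples, chosen after their values were seen. Promoter sequences are from RefSeq (GRCm38.p6). Figures were drawn with matplotlib 3.10.9. Values of some genes of the lists are not reported here.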

Additional observations from a re-analysis of the deposited data

Results flagged for a closer look

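Zfp277 and Ildr1, named for the smallest p of the difference between the genotypes, had levels lower in MPP4 than in MPP3 in all 3 KO mice and higher in all 3 WT mice. For Zfp277 the contrast passed in KO (edgeR adjusted p = 0.0328) and not in WT (edgeR adjusted p = 0.063). For Ildr1 it passed in neither (edgeR adjusted p = 0.108 in KO and 0.0739 in WT), and in KO mouse 1 the levels were 0.0346 CPM in MPP3 and 0 in MPP4. The difference of the log2 fold changes, KO minus WT, was -0.76 ± 0.15 for Zfp277 (edgeR unadjusted p = 0.000201, adjusted p = 0.989). For Ildr1 the fitted difference was -9.05 ± 2.05 (edgeR unadjusted p = 0.00079, adjusted p = 0.989), on 45 reads in MPP3 KO and 1 read in MPP4 KO, so its size depends on the prior count. Neither passed the test over all genes.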

How the results depend on the processing

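The contrast kept its counts within 1.5 times under no replicate block (451 higher, 437 lower), RLE scaling, no filter, limma voom, only the MPP3 and MPP4 libraries and only the 6 KO libraries. The genes called were less alike: 68.7% of the 1224 calls remained with no replicate block and 73.2% with only the 6 KO libraries. Under the other settings just named 87.6% to 99.3% remained. DESeq2 with the block called more, 1030 higher and 961 lower, of which 383 and 461 had a log2 fold change of at least 1 in size, and shared 99.1% of the 1224 calls. Leaving out a mouse or a library gave 283 to 695 higher and 272 to 620 lower genes, and 147 to 270 higher and 168 to 322 lower genes at a log2 of at least 1; without KO mouse 1, 43.5% of the calls remained. For the KO minus WT difference DESeq2 called 57 above and 31 below 0, leaving out a mouse gave 0 to 1 above and 0 to 0 below, and the other alternatives 0. Of 71 named genes called, 36 kept their call under all 19 alternatives run, 35 lost it under at least 1, and 0 reversed; Ms4a2, Cma1 and Gzmb lost it under DESeq2. The causes were not tested. With 3 mice, differences can be missed, and not only small ones at low counts. Itsn2, at a mean of 109 CPM or more in each MPP3 and MPP4 group, had a KO minus WT difference of 0.70 ± 0.12. It did not pass (edgeR adjusted p = 0.989). The absence of edgeR calls for the difference does not show that the genotypes are alike.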
